A study of Homo sapiens with 6 samples.

Results

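Integrins are the receptors by which fibroblasts hold on to collagen, laminin and fibronectin. Described here are 10 integrin subunit genes, ITGA2, ITGA3, ITGA4, ITGA5, ITGA6, ITGA7, ITGAV, ITGB1, ITGB3 and ITGB5, out of 11963 genes named on the array. They were chosen by name, and every probe set annotated to 1 of them was used, 27 of the 22215 tested. The samples were WI-38 cells, a human diploid fibroblast strain from fetal lung, as 3 growing wild-type controls and 3 samples overexpressing RASv12, an always active RAS, which the labels call senescent. All cells were kept at 3% oxygen. The labels do not say whether controls received an empty retrovirus, and they give Cy5 for controls and Cy3 for RASv12 samples, although Affymetrix arrays of this type are read in a single colour, so the dye labels are doubtful. Neither infection nor dye, if the labels hold, can be told apart from RASv12. The labels do not say that replicates came from separate cultures, so each p-value reflects the scatter of these samples alone, and that scatter may be technical. In bulk RNA of this kind, fewer cells of a type and less RNA per cell cannot be told apart.

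An integrin at the cell surface is a pair of an alpha and a beta subunit. The alpha partner largely sets which matrix protein is bound, and the short tail of the beta subunit is grasped by talin and kindlin, which switch the receptor on and tie it to actin. ITGB1 pairs with most of the alpha subunits in fibroblasts, and ITGB3 and ITGB5 can pair with ITGAV. Integrins made of ITGA5 or ITGAV read the RGD sequence of fibronectin, and those with ITGAV also that of vitronectin. The ITGA2 receptor binds collagen, receptors with ITGA3, ITGA6 or ITGA7 bind laminins, and that of ITGA4 binds fibronectin and VCAM1.

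The subunits moved in both directions. In RASv12 cells ITGB3, ITGA2 and ITGA5 rose, ITGA7, ITGAV and ITGA4 fell, and ITGB1, ITGA3, ITGA6 and ITGB5 did not pass on the probe set with the highest mean of each gene. Over all 11963 genes 29.1% were called at an adjusted p under 0.05 (13.8% up and 15.3% down), against 6 of these 10. Intensities of the groups did not overlap for the same number, 6 of 10, where 41.7% of all genes showed no overlap. These shares are not like for like. Of all genes 3606 lay within background on all 6 arrays and 5860 above it on all 6, against 0 and 8 of the 10. The part of detectability in the counts of the 10 was not tested. The median log2 change of the 10 was -0.17, and that of all genes was 0.020. A log2 change here is the RASv12 mean minus the control mean of log2(intensity + 16) after quantile normalization, given with its standard error (n = 3 samples per group), and it understates the change of dim probe sets. A fold that is not a bound is the ratio of geometric means of deposited intensity, RASv12 over control. It was taken without the added 16 or normalization, so it differs from the log2 change. Adjusted p-values are limma's, adjusted by Benjamini-Hochberg, for single probe sets over the 22215 tested and for gene lists over the 11963 genes. Background was taken as an intensity of 27.98, the highest of 27 bacterial control probe sets on any array. All 18 hybridization control probe sets, which detect bacterial and phage transcripts added to the target, were lower on RASv12 arrays, by 0.34 on the log2 scale on average, and scaling to them took the median change over all genes from 0.020 to 0.20 and over the 10 integrin genes from -0.17 to 0.13.

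**Figure D1:**
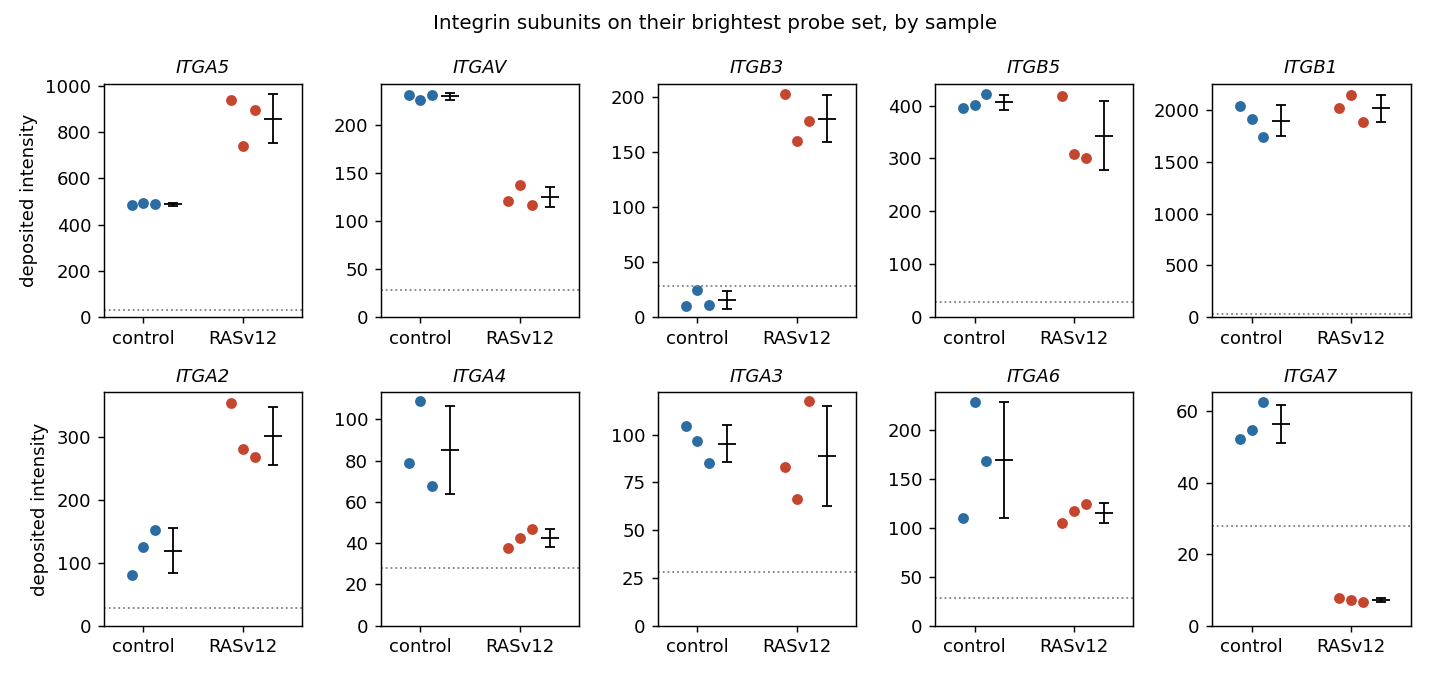
Deposited intensity (vertical axis, from 0, its own scale in each panel) of 10 integrin subunits in the 3 control and 3 RASv12 samples, with the mean and SD beside the points. The dotted line is background at 27.98; ITGB3 lies under it in all controls and ITGA7 in all RASv12 samples, while ITGB1 overlaps between the groups.

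The stretch of DNA just before the annotated start is shown for 2 genes that rose (ITGA2, ITGA5), 1 that fell (ITGAV) and the shared partner that did not pass (ITGB1), to set side by side promoters of subunits with different outcomes. Each is 250 bases long, 5′ to 3′ on the gene's own strand, from RefSeq for GRCh38.p14, and capitals mark matches to GGGCGG, the SP1 box, or to CCGGAA, an ETS core, on either strand. The ITGA2 stretch lies inside the span of its antisense gene ITGA2-AS1.
ITGA2, chr5:52989102-52989351, plus strand: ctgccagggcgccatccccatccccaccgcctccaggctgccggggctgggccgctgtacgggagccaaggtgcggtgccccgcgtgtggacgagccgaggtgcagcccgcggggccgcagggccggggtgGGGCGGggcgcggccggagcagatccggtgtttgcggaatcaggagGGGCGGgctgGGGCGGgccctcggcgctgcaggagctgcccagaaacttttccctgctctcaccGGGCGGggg
ITGA5, chr12:54419267-54419516, minus strand: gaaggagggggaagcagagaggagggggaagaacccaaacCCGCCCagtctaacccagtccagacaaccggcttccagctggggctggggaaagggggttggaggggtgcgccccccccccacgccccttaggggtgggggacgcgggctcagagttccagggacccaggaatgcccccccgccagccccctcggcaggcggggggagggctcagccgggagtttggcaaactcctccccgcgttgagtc
ITGAV, chr2:186589806-186590055, plus strand: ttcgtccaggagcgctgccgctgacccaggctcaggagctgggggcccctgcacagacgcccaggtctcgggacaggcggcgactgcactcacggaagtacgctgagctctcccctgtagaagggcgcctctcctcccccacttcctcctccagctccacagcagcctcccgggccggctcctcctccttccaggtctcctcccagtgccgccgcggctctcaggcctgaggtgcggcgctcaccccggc
ITGB1, chr10:32958231-32958480, minus strand: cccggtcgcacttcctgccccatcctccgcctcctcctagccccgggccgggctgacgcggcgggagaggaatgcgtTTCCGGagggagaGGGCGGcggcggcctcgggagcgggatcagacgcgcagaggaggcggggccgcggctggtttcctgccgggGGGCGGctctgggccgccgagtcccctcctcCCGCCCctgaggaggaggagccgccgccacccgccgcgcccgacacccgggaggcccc

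The SP1 box occurred 4 times before ITGA2, 1 time before ITGA5, 3 times before ITGB1 and not before ITGAV, and 42.6% of 35116 such stretches in the reference table hold it. The ETS core was found 1 time, before ITGB1, and 14.5% of all stretches hold it. GC content was 76.4% for ITGA2, 70.0% for ITGA5, 70.8% for ITGAV and 78.4% for ITGB1. Of the 10 members 7 had at least 1 stretch in the table, 12 in all, and ITGA3, ITGA7 and ITGB3 had none. Of these 12, 6 held the SP1 box and 3 the ETS core. None of the 12 held TGANTCA, the AP-1 site, which 6.57% of all stretches hold, and 2 of them held TATAAA, which 10.7% hold. The motifs do not overlap each other in the sequences shown. These are letter matches only.

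Among the RGD-binding subunits, ITGB3 had the largest rise of the 10 on the brightest probe set of each gene; by the mean of all probe sets of a gene its log2 change was 1.18, beside 1.27 for ITGA2. ITGB3 encodes the beta subunit of the vitronectin receptor in fibroblasts and of the fibrinogen receptor in platelets. On probe set 204627_s_at its intensity was 10.2, 24.8 and 10.4 in the controls and 203, 159.7 and 179 in the RASv12 samples, each in replicate order. All controls lay within background and all RASv12 samples far above it. ITGB3 was therefore at least 6.41-fold higher in RASv12 cells, with a log2 change of 2.69 ± 0.20 and adjusted p = 0.000199. This bound is the RASv12 mean of log2 intensity against that of the controls raised to background, both as deposited, and the fitted log2 change of such a probe set depends on the pseudocount.

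Other ITGB3 probe sets rose as well. Probe set 204625_s_at read 6.68, 9.90 and 6.12 in controls and 84.1, 69.1 and 51.0 in RASv12 cells, at least 2.38-fold higher (adjusted p = 0.000785). Probe set 204626_s_at read 19.7, 4.70 and 9.77 against 65.3, 57.7 and 85.9, at least 2.45-fold higher (adjusted p = 0.00123). On 204628_s_at, 28.2, 24.3 and 18.9 stood against 74.4, 89.3 and 90.2 (adjusted p = 0.000261), and no fold is given because only 1 of 3 controls was above background. The groups overlapped on none of these. Of the 3 remaining ITGB3 probe sets, 215240_at was called up (adjusted p = 0.0431) at intensities within background on every array, so no fold is given, and lost that call in 9 of 13 alternatives, while 211579_at and 216261_at did not pass.

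ITGAV, the alpha partner of both ITGB3 and ITGB5, fell. Its only probe set, 202351_at, read 232, 226 and 232 in controls and 121, 137 and 117 in RASv12 cells, or 230.1 ± 3.17 against 125 ± 10.8 (SD, n = 3). No RASv12 sample reached the lowest control. The log2 change was -0.80 ± 0.10 with adjusted p = 0.00186, and the fold of deposited intensity was 0.542. The subunit that pairs with ITGB3 thus went down on the arrays where ITGB3 went up.

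ITGB5 encodes another beta subunit that can pair with ITGAV, and pairing in these cells was not measured. Its brightest probe set, 201125_s_at, read 395, 401 and 422 in controls and 418, 309 and 302 in RASv12 cells, and RASv12 replicate 1 lay among the controls. The log2 change of -0.28 ± 0.13 did not pass (adjusted p = 0.189). Without that replicate it passed, at -0.41 with adjusted p = 0.0358. Probe set 201124_at read 70.4, 61.4 and 47.9 against 31.3, 37.3 and 40.5, with no overlap, and was called down at -0.47 ± 0.12 (adjusted p = 0.0344). That call was lost in 8 of 14 alternatives, among them each sample left out except control replicate 3. Probe set 214020_x_at, of a kind that can also bind other transcripts, ran the other way and was the most scattered, with 204 in control replicate 1 but 60.1 and 43.5 in the other controls, against 166, 232 and 152. It did not pass (adjusted p = 0.193), and without control replicate 1 it did, at 1.58 with adjusted p = 0.00624. The other, 214021_x_at, lay within background on every array and did not pass. ITGB5 therefore has no single direction across its probe sets.

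ITGA5 is the alpha subunit of the classical fibronectin receptor. It read 484, 496 and 488 in controls and 941, 741 and 895 in RASv12 cells, so that the lowest RASv12 sample stood well clear of the highest control. The rise was 1.75-fold, with a log2 change of 0.77 ± 0.11 and adjusted p = 0.00381. ITGA5 has 1 probe set on this array, 201389_at.

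ITGB1 is the common beta subunit, required for most of the receptors named here. Its brightest probe set, 211945_s_at, read 2039, 1918 and 1738 in controls and 2020.0, 2150.3 and 1885 in RASv12 cells, and the groups overlapped. The log2 change was 0.043 ± 0.11 with adjusted p = 0.828. Scaled to the hybridization controls, ITGB1 was called up at 0.43 (adjusted p = 0.0295). Of its 4 other probe sets, 3 (215878_at, 215879_at and 216190_x_at) lay within background on every array and 216178_x_at exceeded it on 1 control and 1 RASv12 array, and none passed.

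ITGA2 encodes the alpha subunit of a collagen receptor. Its probe set, 205032_at, read 81.0, 125 and 151 in controls and 355, 281 and 268 in RASv12 cells. All RASv12 samples were above all controls. The rise was 2.59-fold, with a log2 change of 1.27 ± 0.22 and adjusted p = 0.00675.

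ITGA4, whose receptor binds fibronectin and VCAM1, fell on 2 of its 3 probe sets. The brightest, 213416_at, read 78.8, 109 and 67.6 in controls and 37.8, 42.7 and 46.7 in RASv12 cells, with no overlap. Its log2 change was -0.71 ± 0.16 (adjusted p = 0.0173), and the fold of deposited intensity was 0.506. This call was lost with scaling to the hybridization controls (-0.51, adjusted p = 0.0762) and without RASv12 replicate 2 (-0.72, adjusted p = 0.0536). On 205885_s_at intensities of 33.4, 37.8 and 36.7 stood against 23.4, 20.8 and 20.1, the latter all within background, at least 1.28-fold lower (adjusted p = 0.0393), a call lost in 8 of 13 alternatives. Probe set 205884_at, above background in 2 of 3 controls and in no RASv12 sample, did not pass (adjusted p = 0.142). VCAM1 itself was above background in 1 control and in no RASv12 sample.

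Of the laminin-binding subunits, ITGA7 fell to background. ITGA7 is best known as the laminin receptor of muscle. On 216331_at it read 52.3, 54.8 and 62.5 in controls and 7.82, 7.19 and 6.68 in RASv12 cells, where every sample was within background. It was at least 2.02-fold lower, with a log2 change of -1.61 ± 0.11 and adjusted p = 0.000112. Its other probe set, 209663_s_at, read 27.6, 31.6 and 31.4 against 3.17, 2.33 and 2.49. With 2 of 3 controls barely above background the bound there is 1.08-fold (adjusted p = 0.000222). Both probe sets thus separated the groups.

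ITGA6, which forms laminin receptors with ITGB1 and ITGB4, gave 2 readings. On 215177_s_at it read 110.0, 228 and 169 in controls and 105, 117 and 124 in RASv12 cells. The groups overlapped through control replicate 1, and the log2 change of -0.41 ± 0.23 did not pass (adjusted p = 0.267). Without control replicate 1 it passed, at -0.67 with adjusted p = 0.0318. On 201656_at the values were 143, 116 and 89.1 against 42.3, 58.2 and 49.8, with no overlap. The log2 change there was -0.93 ± 0.18 (adjusted p = 0.0098).

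ITGA3, the third laminin-binding subunit, read on 201474_s_at 104, 96.5 and 85.2 in controls and 82.9, 66.4 and 118 in RASv12 cells. RASv12 replicates lay both above and below all controls. The log2 change was -0.053 ± 0.17 (adjusted p = 0.873), and its sign turned without control replicate 1, without RASv12 replicate 2 and with scaling to the hybridization controls.

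**Figure D2:**
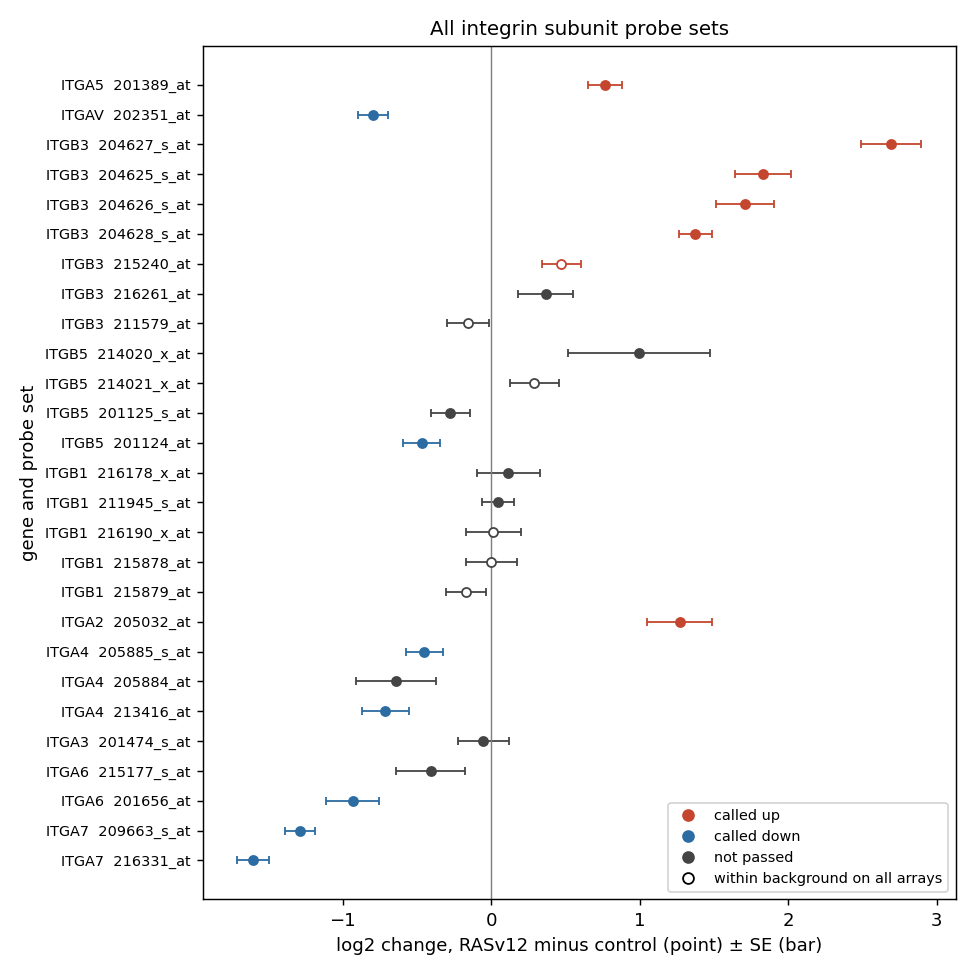
Log2 change, RASv12 minus control (horizontal axis, point with SE bar), for each of the 27 integrin subunit probe sets (vertical axis). Red and blue points were called up and down, 7 each, and open points, in the colour of their call, were within background on all 6 arrays. ITGB3 204627_s_at lies farthest to the right, while ITGB3 215240_at, 216261_at and 211579_at lie nearer 0 than ITGA2.

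Of the 27 probe sets, limma called 7 up and 7 down and left 13 without a call, where 24.3% of all probe sets were called, 11.3% up and 13.0% down. Control and RASv12 intensities stood apart on 14 of the 27, the same 14 that were called, against 38.1% of all probe sets. No member had called probe sets in both directions. Probe sets of 1 gene share their transcript and are not independent. Of the 27, 21 rose above background on at least 1 array and 11 on all 6. The count called down was 4 without RASv12 replicate 2.

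To see whether alpha subunits changed unequally to the shared partner, the ratio of each alpha signal to the ITGB1 signal of the same array was taken, on the log2(intensity + 16) scale as deposited. For ITGA7, within background in every RASv12 sample, the ratio differed by -1.73 between groups, a size set by the pseudocount (-2.89 with 1 and -0.84 with 64). The difference was -0.89 for ITGAV and -0.86 for ITGA4. For ITGA2 the difference was 1.17 and for ITGA5 0.70. In each of these 5 the 3 RASv12 ratios lay clear of the 3 control ratios. The exact two-sided permutation p was 0.1, the smallest that 3 against 3 allow, or 0.14 adjusted over the 7 ratios, so the test cannot pass at this size. ITGB1 itself changed by only 0.043, so these ratios largely restate the 5 alpha subunit calls given above. The share of all genes whose ratio to ITGB1 stands apart was not computed, and 41.7% of all genes stood apart in intensity. For ITGA6 the difference was -0.53 (exact permutation p = 0.3) and for ITGA3 -0.20 (exact permutation p = 0.7).

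**Figure D3:**
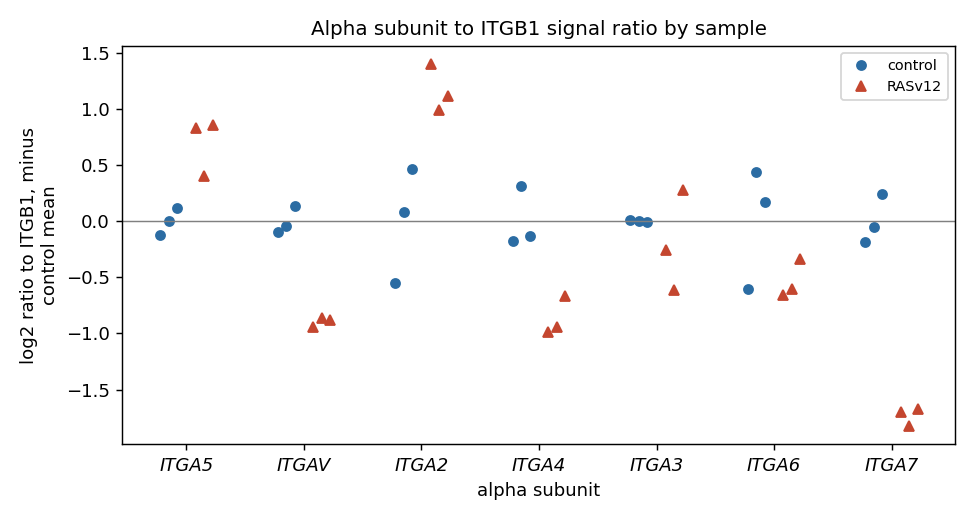
Log2 ratio of each alpha subunit's signal to that of ITGB1 on the same array, minus the control mean (vertical axis), for 7 alpha subunits (horizontal axis); circles are controls and triangles RASv12 samples, 3 each. ITGA2 and ITGA5 lie above their controls and ITGAV, ITGA4 and ITGA7 below, while ITGA3 and ITGA6 overlap.

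Other integrin subunits were mostly not above background in WI-38 cells. Of 13 named on the array, 1 fell and 12 did not pass by limma, and 7 lay within background on all 6 arrays. Over all 11963 genes 13.8% were called up and 15.3% down, and 3606 lay within background on all 6 arrays. None of the 13 rose, 0 also at an unadjusted p under 0.05 and in all 15 alternatives. ITGAE, the alpha subunit of the E-cadherin receptor of tissue lymphocytes, was the 1 that fell, at 631, 576 and 634 in controls and 409, 368 and 312 in RASv12 cells, a log2 change of -0.77 ± 0.11 (adjusted p = 0.00295 over genes). ITGA10, a collagen-binding alpha subunit, read 48.9, 42.6 and 37.2 against 22.8, 26.9 and 60.4 and did not pass, with RASv12 replicate 3 above every control. ITGA8, ITGAM, ITGA2B and ITGB2 exceeded background on 1 to 2 arrays each and did not pass. The platelet partner of ITGB3, ITGA2B, read 20.6, 24.3 and 20.2 in controls and 28.4, 21.0 and 25.8 in RASv12 cells.

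Genes for integrin ligands mostly fell. Limma called 16 of 27 down and 3 up, and the remaining 8 did not pass, where 15.3% of all genes were called down and 13.8% up. The median log2 change was -0.82, the same with dim members at their bound, beside 0.020 for all genes. COL3A1 and COL1A1, fibrillar collagens, had log2 changes of -4.49 and -1.83, and COL4A2 and COL4A1, the paired chains of basement membrane collagen, of -2.01 and -1.87. All 3 laminin chains that stayed above background, LAMA4 (-0.81), LAMB1 (-0.65) and LAMC1 (-1.40), fell, as did their linker NID1 (-1.51), and LAMA5 was at least 2.52-fold and LAMA2 at least 1.69-fold lower. FN1, the ligand of the ITGA5 receptor, read 3891 in controls and 3696 in RASv12 cells on average and did not pass (adjusted p = 0.565). Of 12 fibroblast markers 9 fell as well; COL1A1, COL1A2, COL3A1 and COL6A1 stand in both lists, and the markers' part in the ligand count was not tested. The laminins, NID1 and FN1 were named after their values were seen. The 3 that rose were ICAM1, a leukocyte integrin ligand (3.40), SPP1, the RGD protein osteopontin, at least 3.58-fold higher, and TGFB1, whose latent form is held by integrins with ITGAV (0.90). The rise of TGFB1 rests on its brightest probe set, since the mean of its probe sets, at 0.29, did not pass.

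SPP1, which the ITGB3 receptor can bind, read 5.80, 9.34 and 12.9 in controls, all within background, and 97.4, 85.1 and 122 in RASv12 cells. ICAM1 read 52.3, 58.4 and 65.5 against 792, 755 and 726. In both, the groups lay far apart.

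Among the proteins that link integrin tails to actin, 12 of 25 were called down and 3 up, 10 had no call, and the median log2 change was -0.32. Of all genes 15.3% were called down and 13.8% up, with a median of 0.020. TGFB1I1, the paxillin relative Hic-5, read 423, 427 and 428 in controls and 194, 194 and 195 in RASv12 cells, a log2 change of -1.08 ± 0.082. Vinculin (VCL) changed by -0.98, the tensin TNS3 by -1.33 and the zyxin relative LPP by -1.06, though the mean of the LPP probe sets, -0.28, did not pass. The 3 that rose were the paxillin relative leupaxin (LPXN), from 135, 152 and 134 to 1044, 891 and 924, the kindlin FERMT1, from 29.0, 33.5 and 19.9 to 154, 156 and 121, and the parvin PARVB, at 0.48, a call lost in 6 of 15 alternatives. Talin 1 (TLN1), which activates integrins, did not pass at 0.086, whereas FERMT2, the kindlin of fibroblasts, was called down at -0.61, and both were named after their values were seen. With scaling to the hybridization controls 7 linkers fell and 7 rose, and their median was 0.045, beside 0.20 for all genes.

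Signalling proteins and regulators of integrins moved both ways. Of 33 on the array, 9 were called up and 7 down, 17 had no call, and the median log2 change was 0.18. With scaling to the hybridization controls 18 were called up and 2 down, and the median was 0.51. PLAUR, the urokinase receptor, which associates with integrins, went from 231, 248 and 215 to 1078, 952 and 814. The tetraspanin CD82 rose by 1.42, the adaptor GRB2 by 1.34 and the Src family kinase FYN by 0.69. Caveolin 1 (CAV1) went from 2119, 1981 and 1895 to 455, 562 and 582, a log2 change of -1.92, and the syndecan SDC4, a fibronectin co-receptor, changed by -1.32. CD81, at -0.46, and CD47, an ITGAV and ITGB3 associated protein, at -0.47, were also called down but not with scaling to the hybridization controls (-0.11 and -0.12) or a pseudocount of 1 (adjusted p = 0.0543 and 0.0552), nor CD81 with median centring (adjusted p = 0.0563). Without RASv12 replicate 2 there were 5 rises and 4 falls, and 4 falls without control replicate 2 or 3 and with the replicate block.

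**Figure D4:**
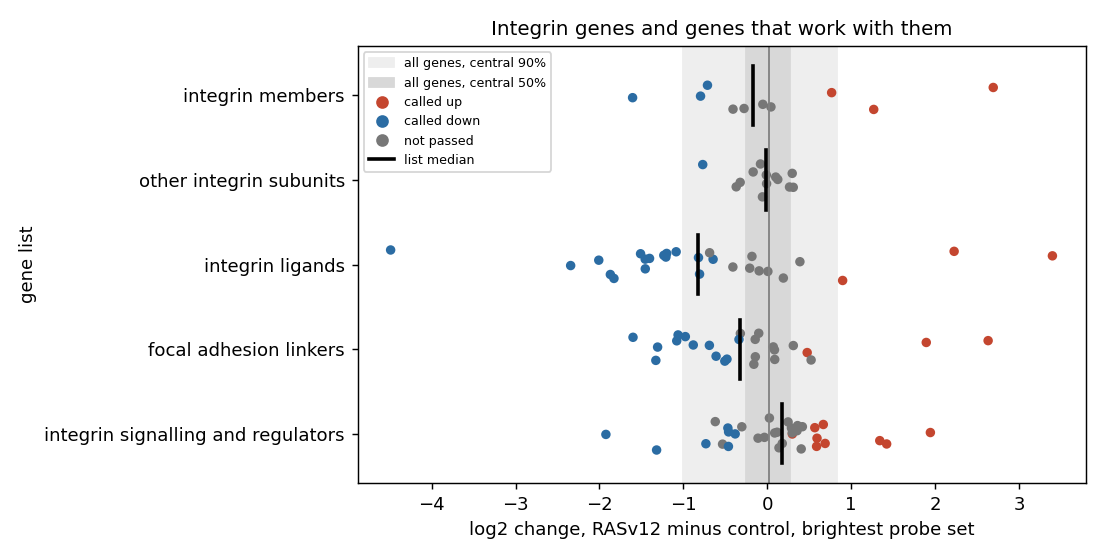
Log2 change, RASv12 minus control (horizontal axis), of each gene in 5 lists on its brightest probe set, with points spread vertically for legibility only, black bars at list medians and grey bands for the central 50% and 90% of all 11963 genes. The ligand median lies at -0.82, and ITGB3 is the member farthest to the right.

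By likeness over the 6 samples on the normalized log2 scale, the 3 genes closest to ITGB3 were ALDOC, an aldolase (r = 0.999), AP1S1, a clathrin adaptor subunit (r = 0.998), and GRB10, a receptor adaptor (r = 0.998). Those closest to ITGA7 were ZBTB18, a transcriptional repressor (r = 0.999), STC2, a stanniocalcin (r = 0.999), and the locus LOC728392 (r = 0.999). The 6 samples form 2 groups, so such values mostly carry the group difference. Of 7325 genes compared, 626 had r above 0.95 with ITGB3 and 920 with ITGA7.

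The fibroblast label was checked against 12 markers, all above background on all arrays. Of these 9 were called down, where 15.3% of all genes were, and 3, namely COL6A1, FAP and VIM, did not pass. Their summed intensity ran from 22380 to 24720 in controls and from 10320 to 11860 in RASv12 samples. Of 8 epithelial, 7 endothelial, 7 leukocyte, 6 platelet and 7 skeletal muscle markers measured, 5, 4, 5, 2 and 6 lay within background on all arrays. Of all 11963 genes 3606 did. The epithelial marker KRT19 was called down, from 50.7, 55.5 and 52.0 to 27.1, 14.1 and 11.7 (limma adjusted p = 0.013). The leukocyte marker CD53 and the platelet marker GP1BA were above background on all 6 arrays and did not pass. The summed platelet markers ran from 88.2 to 127.9 in controls and from 131.4 to 229.8 in RASv12 samples. PF4, a chemokine of platelets, was called up among them, from 9.93, 11.5 and 10.3 to 39.4, 45.9 and 67.6, and the endothelial receptor TIE1 was called up and TEK down. Their part in the ITGB3 result was not tested. Skeletal muscle markers, summed, ran from 49.9 to 76.4 and from 48.8 to 67.1. Arrays correlated at 0.975 to 0.987 within groups and 0.912 to 0.928 between them.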

How the data were processed

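The data are 1 array per sample for 3 control and 3 RASv12 samples of WI-38 cells. The authors deposited linear signal intensity values, 1 per probe set, made with MAS5 per the submitters' processing notes. The MAS5 version is not given in the sources used here. The mean intensity after trimming 2% from each end was 100 on every array, so arrays had been scaled before deposit. Of 22283 probe sets, 68 controls were left out. Symbols came from the platform annotation, updated by gene identifier to GRCh38.p14: 19065 probe sets had 1 symbol, 1043 several and 2107 none, and only the first were named. Intensities were transformed as log2(value + 16), quantile normalized and fitted with limma 3.58.1 (lmFit, eBayes) in R 4.3.3, without a filter, with Benjamini-Hochberg adjustment and a threshold of 0.05. A gene was represented by its brightest probe set over all 6 samples, with p-values of the same fit adjusted over genes. Precision is limited by the number of arrays. Groups and replicate numbers came from the sample titles.

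All probe sets of the 10 members are named, other integrin subunits above background, up to 4 genes called up and 4 called down with the largest moderated t in each of 3 further lists, and 3 genes most like the members with the largest fitted rise and fall (ITGB3 and ITGA7). The members and lists were chosen with earlier results of these data known. Alternatives were other scalings, pseudocounts and filters, the mean of probe sets, a replicate block and leaving out each sample. The procedure was tested on simulated data. ITGA11, ITGAD and ITGB6, and some genes of the other lists, had no probe set named for them alone and were not analysed here.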

Additional observations from a re-analysis of the deposited data

How the results depend on the processing

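Across 15 alternatives, the 3 member genes that rose (ITGB3, ITGA2, ITGA5) stayed called up, and ITGAV stayed called down. ITGA7 did so wherever it was fitted; its probe sets are among the dimmest 50% and dropped out with that filter. ITGA4 lost its call over genes with scaling to the hybridization controls (-0.51, adjusted p = 0.068). ITGA6 gained one with the mean of probe sets (-0.67). The cause of such changes was not tested. Scaling to the hybridization controls gave 4375 probe sets up and 1675 down, 4 member probe sets down, 5 ligands up, 7 linkers up and 7 down, and 18 regulators up and 2 down. With the mean of probe sets 5 linkers rose. Without the dimmest 50%, 4 member probe sets fell. For regulators, median centring gave 3 down and a pseudocount of 1 gave 5 up and 2 down.

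Signs turned for values that did not pass: with scaling to the hybridization controls for ITGA3 (0.18), ITGB5 (0.077), ITGA10 (0.018) and ITGAM (0.19), with median centring for ITGAM (0.0061) and with the mean of probe sets for ITGB5 (0.13) and ITGA2B (-0.023). Leaving out 1 sample took ITGA3 from -0.22 to 0.0996, ITGB1 from -0.033 to 0.11 and, on 216178_x_at, from -0.049 to 0.29, ITGAM from -0.089 to 0.11, and the ITGA3 to ITGB1 ratio from -0.44 to 0.0079. Over the samples left out, calls ran from 1676 to 2298 probe sets up and 2030 to 2672 down, member probe sets from 6 to 8 up and 4 to 7 down, linkers from 2 to 3 up and 8 to 10 down, regulators from 5 to 8 up and 4 to 6 down, and other subunits from 1 to 2 down (ITGA10, at -0.45, joined without RASv12 replicate 3).

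Deviations of same-numbered samples from their group means correlated at -0.23, -0.028 and -0.07, and those of differently numbered samples at -0.116 to 0.165. With 3 arrays per group this cannot show whether the samples were made in pairs. With the replicate block all 3 rises and 3 falls of member genes were called, 4 regulators fell, and PARVB (adjusted p = 0.089) and the ITGA4 and ITGB5 probe sets 205885_s_at (0.104) and 201124_at (0.0795) were not called. Signals near background limit ITGB3 in controls and ITGA7 in RASv12 cells to bounds.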
